A study of Mus musculus with 10 samples.

Results

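Axon guidance ligands and receptors were followed as 69 genes among the 18194 with a named probe set on the array. They are the genes whose symbol begins as a semaphorin, plexin, ephrin, Eph receptor, Slit, Robo, netrin or Unc5 gene, and Dcc. The samples were cells of NG4, a line of mouse embryonic stem cells, that received siRNA at plating, were kept in retinoic acid to differentiate and were collected 48 h after transfection. There were 5 groups of 2 Affymetrix arrays. The groups labelled siSocs3, siSox17, siFbxw7 and siRnf31 received siRNA against Socs3, a feedback inhibitor of cytokine signalling, Sox17, an endoderm transcription factor, Fbxw7, a substrate subunit of a ubiquitin ligase, or Rnf31, a ubiquitin ligase for linear chains. The siNonTarget group was given an siRNA with no target gene, and all 5 groups shared the cell line, the retinoic acid and the time. The labels name 1 cell line and no genetic change, and do not say whether replicates were separate cultures, so each p-value is set against a spread between arrays that may be purely technical.

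Guidance cues tell a growing axon or a migrating cell where to turn. Slit proteins are secreted and act through Robo receptors, semaphorins through plexins, with neuropilins as co-receptors for most secreted ones, ephrins through Eph receptor tyrosine kinases on touching cells, and netrins through Dcc, which mediates attraction, and the Unc5 receptors, which mediate repulsion. The same families also pattern blood vessels and tissue boundaries, and retinoic acid is widely used to drive embryonic stem cells towards neural fates, in which many of these genes are used.

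The 69 genes held 20 semaphorins, 9 plexins, 8 ephrins, 13 Eph receptors, 3 Slit genes, 4 Robo genes, 4 netrins and 5 netrin receptors. A further 3 matched by name only and are counted apart: Unc50, which encodes a Golgi membrane protein, Unc5cl, which encodes an intracellular protein, and Plxna4os1, a transcript from the strand opposite Plxna4. Each gene was read from its probe set with the highest mean. In all, 148 probe sets belonged to these genes, 25 genes had 1 probe set and 44 had several.

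Against siNonTarget, the transcript each siRNA was designed against did not pass in any of the 4 groups, so transcript levels do not check the labels, and directions below rest on them. Socs3 itself was 0.44 ± 0.24 on the log2 scale in the arrays labelled siSocs3 (SE, 2 arrays per group, limma adjusted p = 0.281). Array medians lay between 46.39 and 47.95 intensity units. RNA integrity was read from the 3′ minus 5′ log2 difference of the actin control probe sets, which was 0.60 on siFbxw7 replicate 1 and 0.50 on siNonTarget replicate 1, against 0.21 to 0.29 on the other 8 arrays. Across genes, which are not independent replicates, these 2 arrays were closer to each other (r = 0.9974) than the siNonTarget replicates were (r = 0.9936). Other arrays of different groups, with lower actin differences, were about as close. They included siNonTarget replicate 2 with siRnf31 replicate 2 (r = 0.9971) and siSox17 replicate 2 with siFbxw7 replicate 2 (r = 0.9978). Results are given below without the 2 arrays of high actin difference too.

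Promoter sequences are shown for 4 genes on which the comparisons turn: the receptor and the ligand that fell most (Plxna2 and Slit2), the brightest semaphorin that fell (Sema3e) and the receptor that rose most (Robo4). They come from RefSeq, assembly GRCm38.p6, and run from 250 bases before to 50 bases after the annotated start, 5′ to 3′ on the plus strand. Capitals mark matches, on either strand, to AGGTCA (the core motif of nuclear receptors), GGGCGG (the GC box), TTCNNNGAA (the spaced palindrome of STAT factors) and TATAAA. No marked matches overlap. The windows are chr1:194619579-194619878 for Plxna2, chr5:47982905-47983204 for Slit2, chr5:14025026-14025325 for Sema3e and chr9:37401722-37402021 for Robo4.
Plxna2: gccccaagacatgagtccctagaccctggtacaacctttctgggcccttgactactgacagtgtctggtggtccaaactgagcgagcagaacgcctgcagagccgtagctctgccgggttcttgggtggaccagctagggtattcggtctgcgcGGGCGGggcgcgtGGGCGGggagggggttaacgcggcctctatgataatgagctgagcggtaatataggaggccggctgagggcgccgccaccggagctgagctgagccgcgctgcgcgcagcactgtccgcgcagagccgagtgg
Slit2: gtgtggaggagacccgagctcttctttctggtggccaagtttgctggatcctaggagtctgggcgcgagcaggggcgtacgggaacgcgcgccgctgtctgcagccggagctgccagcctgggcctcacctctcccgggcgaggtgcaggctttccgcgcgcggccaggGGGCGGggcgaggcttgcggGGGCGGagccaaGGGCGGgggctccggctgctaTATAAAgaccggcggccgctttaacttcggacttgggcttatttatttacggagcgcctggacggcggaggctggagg
Sema3e: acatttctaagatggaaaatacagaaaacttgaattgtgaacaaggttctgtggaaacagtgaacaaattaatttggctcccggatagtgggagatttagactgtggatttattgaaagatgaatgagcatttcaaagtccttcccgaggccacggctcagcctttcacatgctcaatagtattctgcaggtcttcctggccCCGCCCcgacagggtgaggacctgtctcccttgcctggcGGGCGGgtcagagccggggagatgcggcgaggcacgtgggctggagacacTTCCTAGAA
Robo4: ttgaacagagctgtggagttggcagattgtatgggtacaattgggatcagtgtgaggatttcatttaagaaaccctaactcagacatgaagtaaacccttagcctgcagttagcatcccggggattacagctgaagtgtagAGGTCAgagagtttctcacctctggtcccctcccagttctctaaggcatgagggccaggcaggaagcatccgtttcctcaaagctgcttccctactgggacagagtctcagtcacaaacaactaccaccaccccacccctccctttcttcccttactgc

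The Plxna2 window held 2 GC boxes, and the Slit2 window held 3 with 1 TATAAA. The Sema3e window held 2 GC boxes, 1 of them on the minus strand, and 1 TTCNNNGAA, while the Robo4 window held 1 AGGTCA and 0 GC boxes. Windows were at hand for 58 of the 69 genes, 74 windows in all. GGGCGG was in 71.6% of these and in 35.7% of 32851 windows of all genes, and the median GC content was 64.2% in the guidance windows against 52.7% in those of all genes. AGGTCA was in 13.5% against 16.3%, TTCNNNGAA in 4.05% against 8.3% and TATAAA in 2.7% against 13.6%. A match is a string of letters in the window and no evidence of binding.

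Levels are log2 intensities, and because each probe set binds with its own strength they order no gene against another. The median over the 69 genes was 6.38, and the median over all genes was 7.002, with 26 guidance genes above the median of all genes. The 10 probe sets with the highest means belonged to Unc50 (10.995), the ephrin gene Efnb2 (9.43), the Eph receptor gene Epha2 (9.02), the netrin receptor gene Unc5b (8.91), Sema3e (8.87), Plxna1 (8.77), Sema3f (8.76), Efna4 (8.76), Robo1 (8.71) and Efna2 (8.71). By family, means ran from 3.60 (Sema3d) to 8.87 (Sema3e) in semaphorins, from 5.53 (Plxnc1) to 8.77 (Plxna1) in plexins, from 6.63 (Efnb3) to 9.43 (Efnb2) in ephrins and from 3.31 (Epha6) to 9.02 (Epha2) in Eph receptors. They ran from 6.02 (Slit1) to 7.04 (Slit2) in Slit genes, from 3.16 (Robo2) to 8.71 (Robo1) in Robo genes, from 3.66 (Ntn3) to 8.45 (Ntn1) in netrins and from 4.13 (Unc5d) to 8.91 (Unc5b) in netrin receptors. The genes matched by name only ran from 3.97 (Plxna4os1) to 10.995 (Unc50).

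The first question is whether each siRNA changed guidance gene expression against the control siRNA. In the arrays labelled siSocs3, 6 guidance genes fell and 2 rose. The receptor gene Plxna2, the ligand genes Slit2, Slit3, Sema4c and Sema3e and the receptor gene Epha7 fell, by 1.55-fold (Slit3) to 4.55-fold (Plxna2). The receptor genes Robo4 (2.41-fold) and Dcc (1.72-fold) rose. These 8 genes are 11.6% of the 69, where 9.26% of all genes passed (limma, Benjamini-Hochberg over 18194 genes, adjusted p under 0.05). The share that fell was 8.7% against a background of 5.66%, and the share that rose 2.9% against 3.59%, so the family as a whole was called about as often as other genes. The arrays hold mixed cells, so fewer cells of a type and less RNA per cell cannot be told apart.

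**Figure D1:**
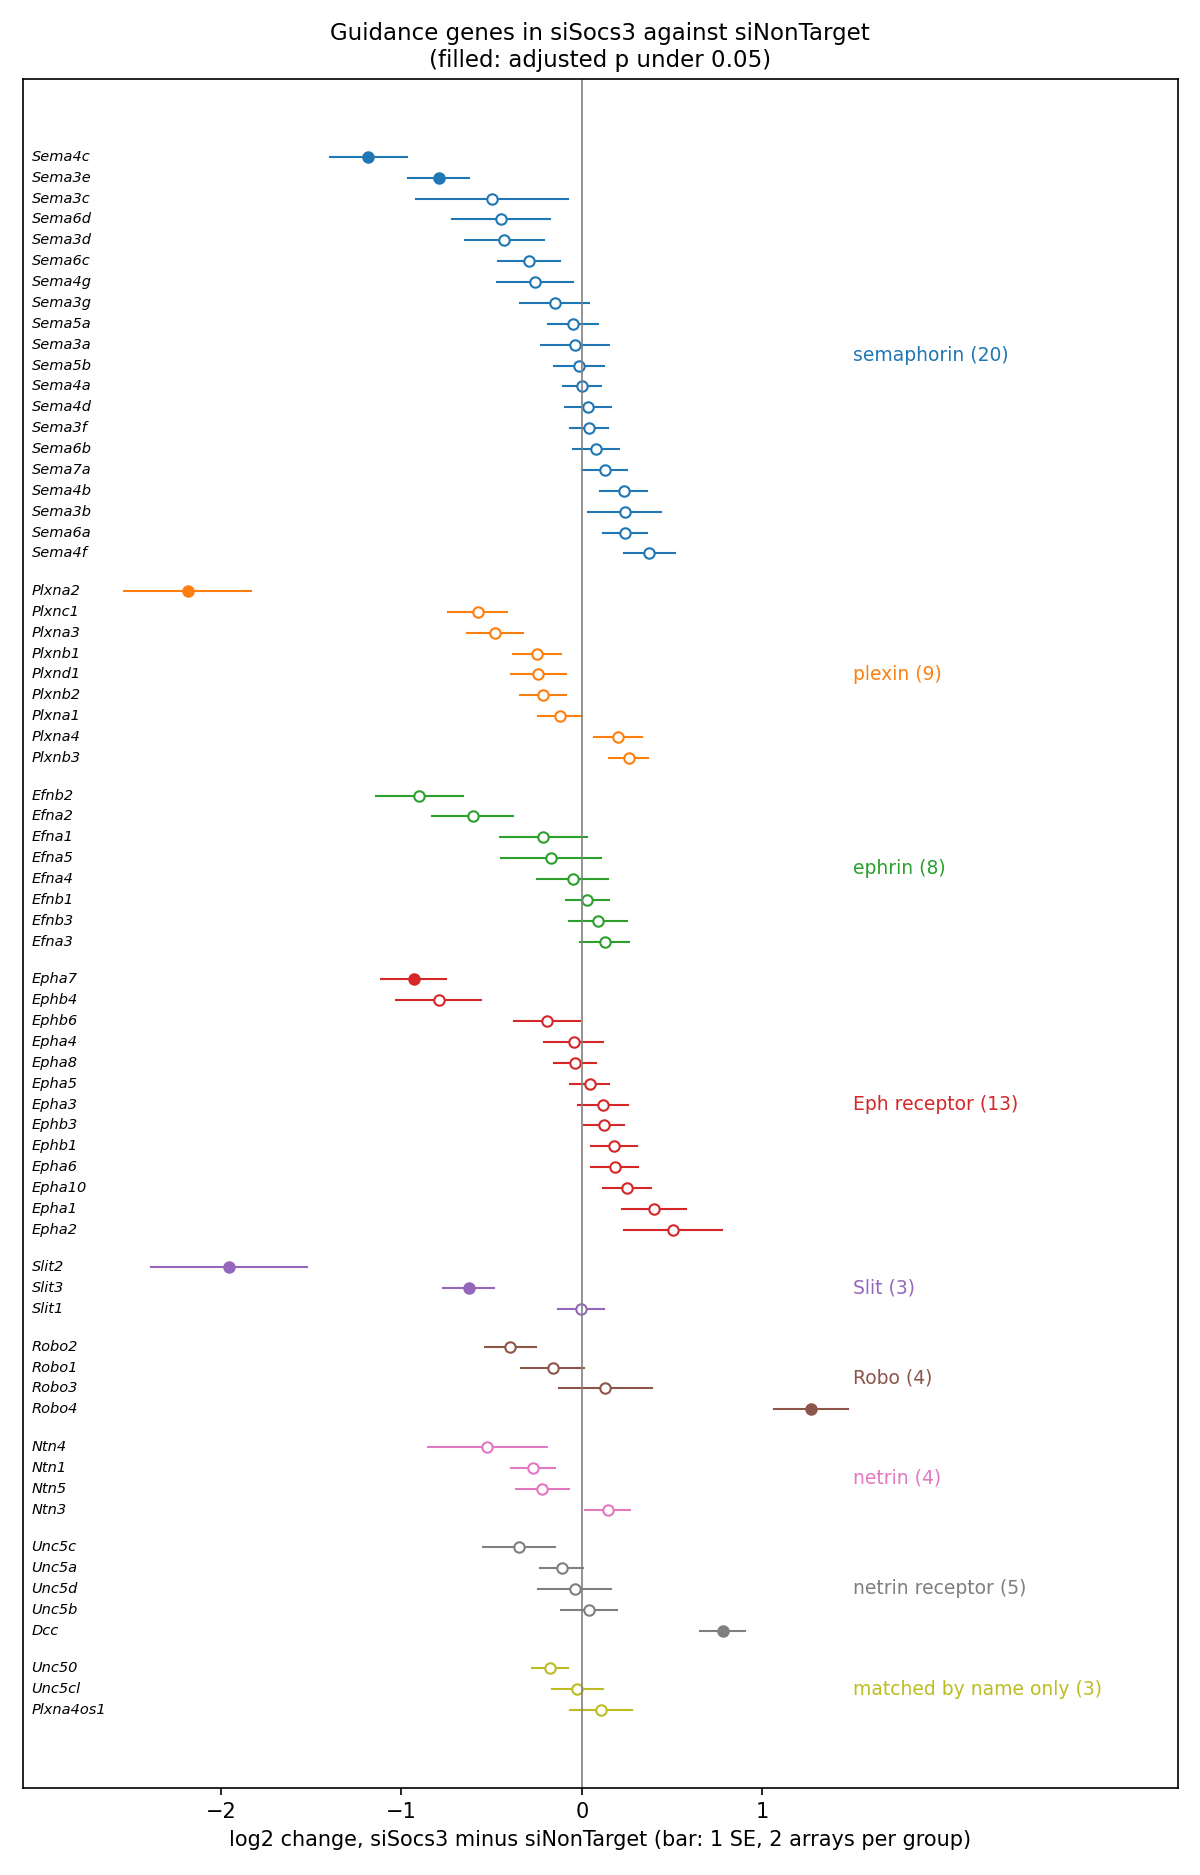
Log2 change of each of the 69 genes, siSocs3 minus siNonTarget, on the horizontal axis, sorted within family, with bars of 1 SE and filled points for adjusted p under 0.05. The 6 filled points left of 0 run from −2.19 (Plxna2) to −0.63 (Slit3), and the 2 right of 0 are Robo4 at 1.27 and Dcc at 0.78; all other genes have open points.

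Among semaphorin ligands, 2 of 20 fell and 0 rose in siSocs3, and the median change of the family was −0.03. Sema4c encodes a membrane-bound semaphorin that acts through plexin B2. Sema4c read 7.23 and 7.19 on the siSocs3 arrays, 7.36 and 7.61 on the siSox17 arrays, 8.31 and 7.75 on the siFbxw7 arrays, 7.59 and 8.10 on the siRnf31 arrays, and 8.47 and 8.31 on the siNonTarget arrays. Both siSocs3 arrays were the lowest of the 10 and both control arrays the highest, with siFbxw7 replicate 1 just under the lower control. Its change was −1.18 ± 0.21 (SE, 2 arrays per group, limma adjusted p = 0.0140). Sema3e encodes a secreted semaphorin that binds plexin D1 without a neuropilin. Sema3e read 8.22 and 8.61 on the siSocs3 arrays, 8.997 and 9.33 on the siSox17 arrays, 8.95 and 9.08 on the siFbxw7 arrays, 8.56 and 8.50 on the siRnf31 arrays, and 9.37 and 9.05 on the siNonTarget arrays. The siSocs3 and siRnf31 arrays overlapped each other and lay below all 6 other arrays. Its change in siSocs3 was −0.79 ± 0.17 (adjusted p = 0.0245). The other 18 semaphorin genes lay between −0.50 (Sema3c) and 0.37 (Sema4f) and did not pass.

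Plexin receptor genes were mostly below 0, with 7 of 9 estimates negative, but 1 passed. Plxna2 encodes a receptor for class 6 semaphorins that also forms complexes with neuropilins. Plxna2 read 6.04 and 6.56 on the siSocs3 arrays, 7.58 and 7.31 on the siSox17 arrays, 8.46 and 7.24 on the siFbxw7 arrays, 7.62 and 7.88 on the siRnf31 arrays, and 8.70 and 8.27 on the siNonTarget arrays. The siSocs3 arrays were the lowest of the 10 by a clear gap, and the siFbxw7 replicates were split, 1 level with the controls and 1 level with siSox17. The change in siSocs3 was −2.19 ± 0.35 (adjusted p = 0.0101), the largest among the 69 genes. All 4 probe sets of Plxna2 fell in that comparison when every probe set was tested alone, the other 3 by −2.21 ± 0.33, −1.08 ± 0.21 and −1.53 ± 0.34 (adjusted p = 0.0108, 0.0214 and 0.0324). Plxnd1, which encodes the receptor of the Sema3e protein, was −0.24 and did not pass.

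**Figure D2:**
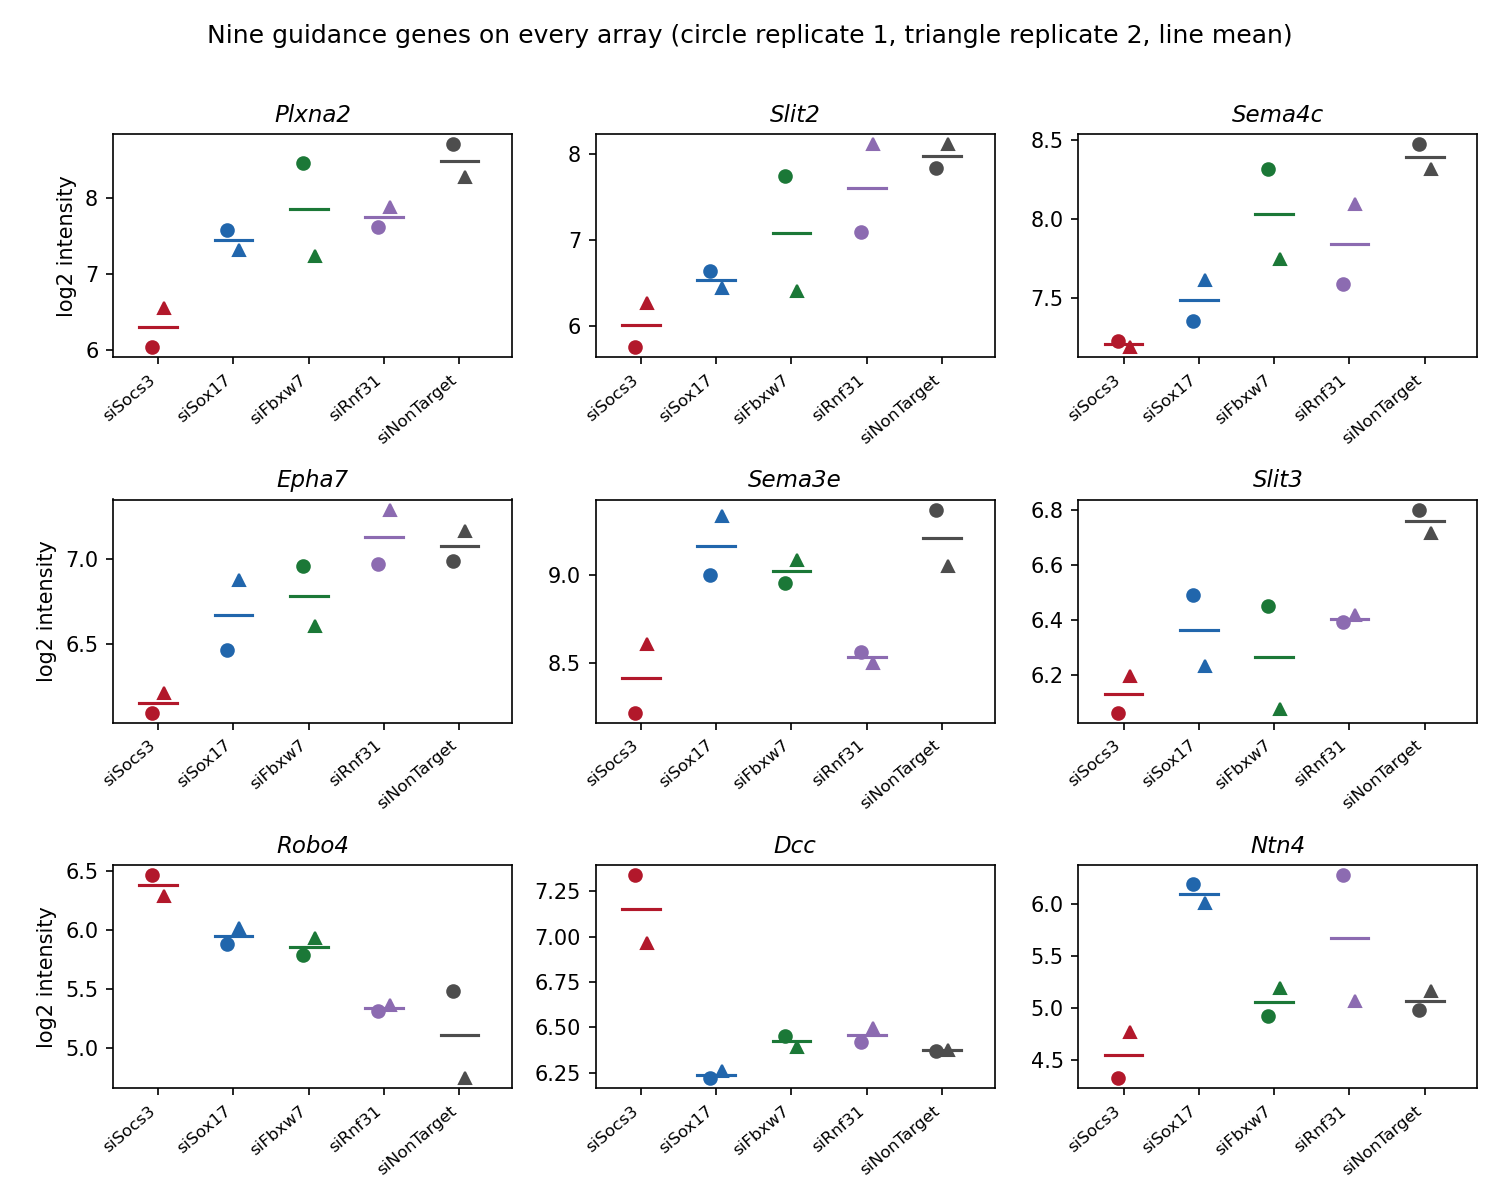
Log2 intensity of 9 guidance genes on each of the 10 arrays, with circles for replicate 1, triangles for replicate 2 and a line at each group mean; each panel has its own vertical axis. Both siSocs3 arrays lie below all other arrays for Plxna2, Slit2, Sema4c, Epha7 and Ntn4 and above all others for Robo4 and Dcc.

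Slit ligand genes fell in 2 of 3 cases. Slit2 read 5.75 and 6.27 on the siSocs3 arrays, 6.64 and 6.44 on the siSox17 arrays, 7.74 and 6.41 on the siFbxw7 arrays, 7.09 and 8.11 on the siRnf31 arrays, and 7.83 and 8.11 on the siNonTarget arrays. The siSocs3 arrays were the lowest of the 10, close under siSox17 and siFbxw7 replicate 2, and siRnf31 replicate 2 overlapped the controls. Its change in siSocs3 was −1.96 ± 0.43 (adjusted p = 0.0273), or 3.88-fold lower. The other probe sets of Slit2 were dimmer, at means of 4.38 and 3.63, and gave −0.60 and −0.39, neither past the threshold. Slit3, with 1 probe set, read 6.06 and 6.20 on the siSocs3 arrays, 6.49 and 6.23 on the siSox17 arrays, 6.45 and 6.08 on the siFbxw7 arrays, 6.39 and 6.42 on the siRnf31 arrays, and 6.80 and 6.72 on the siNonTarget arrays. All 8 arrays with a targeting siRNA lay below both controls, and the siSocs3 and siFbxw7 arrays overlapped. The siSocs3 change was −0.63 ± 0.14 (adjusted p = 0.0300), while Slit1 was at −0.01.

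Of the Robo genes, Robo4 rose and Robo1, Robo2 and Robo3 did not pass. Robo4, a Robo receptor best known from endothelial cells, read 6.47 and 6.29 on the siSocs3 arrays, 5.88 and 6.02 on the siSox17 arrays, 5.78 and 5.93 on the siFbxw7 arrays, 5.31 and 5.36 on the siRnf31 arrays, and 5.48 and 4.74 on the siNonTarget arrays. The siSocs3 arrays were the highest of the 10, and siSox17 and siFbxw7 also lay above both controls. The change in siSocs3 was 1.27 ± 0.20 (adjusted p = 0.0102). Of 6 endothelial markers, 0 passed in that comparison. Their summed intensity was 407 and 462 on the siSocs3 arrays against 392 and 321 on the siNonTarget arrays. Pecam1, which embryonic stem cells also express, was 1.18 ± 0.34 (adjusted p = 0.0613), and Tek, an angiopoietin receptor gene, lay the other way at −0.72 ± 0.26 (adjusted p = 0.125). Tek read 5.77 and 6.17 on the siSocs3 arrays against 6.89 and 6.48 on the siNonTarget arrays. The other 4 were between −0.04 (Kdr) and 0.20 (Cdh5), and the defining marker genes Emcn and Cdh5 read 3.01 to 3.56 and 4.05 to 5.00 over the 10 arrays, near the bottom of the range. In direct contrasts Tek was lower in siSocs3 than in siSox17 (−1.36 ± 0.26, limma adjusted p = 0.0341) and siFbxw7 (−1.41 ± 0.26, adjusted p = 0.0247). Their part in the Robo4 result was not tested.

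Ephrin genes gave 0 calls among 8 and Eph receptor genes 1 among 13 in siSocs3. Epha7, a receptor for the membrane-anchored A-class ephrins, read 6.09 and 6.21 on the siSocs3 arrays, 6.46 and 6.88 on the siSox17 arrays, 6.96 and 6.61 on the siFbxw7 arrays, 6.97 and 7.29 on the siRnf31 arrays, and 6.99 and 7.17 on the siNonTarget arrays. The siSocs3 arrays were the lowest of the 10, and siRnf31 overlapped the controls. The change was −0.93 ± 0.18 (adjusted p = 0.0179), but the other 3 probe sets of Epha7 gave −0.34, 0.04 and −0.24 and none passed. Efnb2, whose product is the ligand of EphB4, missed the threshold at −0.90 ± 0.24 (adjusted p = 0.0505). It read 8.71 and 9.17 on the siSocs3 arrays and 9.49 and 10.19 on the siNonTarget arrays. Its receptor gene Ephb4 was −0.79 ± 0.24 (adjusted p = 0.0692). The other Eph receptor genes lay between −0.19 (Ephb6) and 0.50 (Epha2).

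Netrin genes gave 0 calls among 4, and of the 5 netrin receptor genes Dcc rose. Dcc read 7.34 and 6.97 on the siSocs3 arrays, 6.22 and 6.26 on the siSox17 arrays, 6.45 and 6.39 on the siFbxw7 arrays, 6.42 and 6.50 on the siRnf31 arrays, and 6.37 and 6.38 on the siNonTarget arrays. The 8 arrays outside siSocs3 lay within a narrow band, and both siSocs3 arrays stood above it. The change was 0.78 ± 0.13 (adjusted p = 0.0102). The 4 Unc5 receptor genes lay between −0.35 (Unc5c) and 0.04 (Unc5b), and netrin genes between −0.53 (Ntn4) and 0.14 (Ntn3). Over all 5 groups, a moderated F test called 1 of the 69 genes, Dcc (adjusted p = 0.0338), where 1.87% of all genes passed.

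Single probe sets gave larger rises for Dcc and a split result for Robo1. The 2 dimmer probe sets of Dcc rose by 2.19 ± 0.21 and 1.89 ± 0.16 in siSocs3 against siNonTarget (limma with every probe set tested alone, adjusted p = 0.00379 and 0.00318). The dimmest of these Dcc probe sets read 5.91 and 5.62 on the siSocs3 arrays against 3.69 and 4.06 on the siNonTarget arrays, and no other array was above 4.14. Robo1 was represented by a probe set with a mean of 8.71, which did not change in siSocs3 past the threshold (−0.16 ± 0.18). A dimmer Robo1 probe set, chosen for description after its values were seen, rose by 1.81 ± 0.28 (adjusted p = 0.0123). It read 8.86 and 8.71 on the siSocs3 arrays, 6.83 and 6.17 on the siSox17 arrays, 6.65 and 6.40 on the siFbxw7 arrays, 6.71 and 7.46 on the siRnf31 arrays, and 6.75 and 7.21 on the siNonTarget arrays. The siSocs3 arrays thus stood above all 8 others on this probe set, whereas the third Robo1 probe set was at −0.20. Which transcript each Robo1 probe set reads is not given in the files. Across all 148 probe sets, 15 passed in this comparison, from 9 genes with Robo1 as the addition to the 8 above. The share over all probe sets of the array is not given here.

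**Figure D3:**
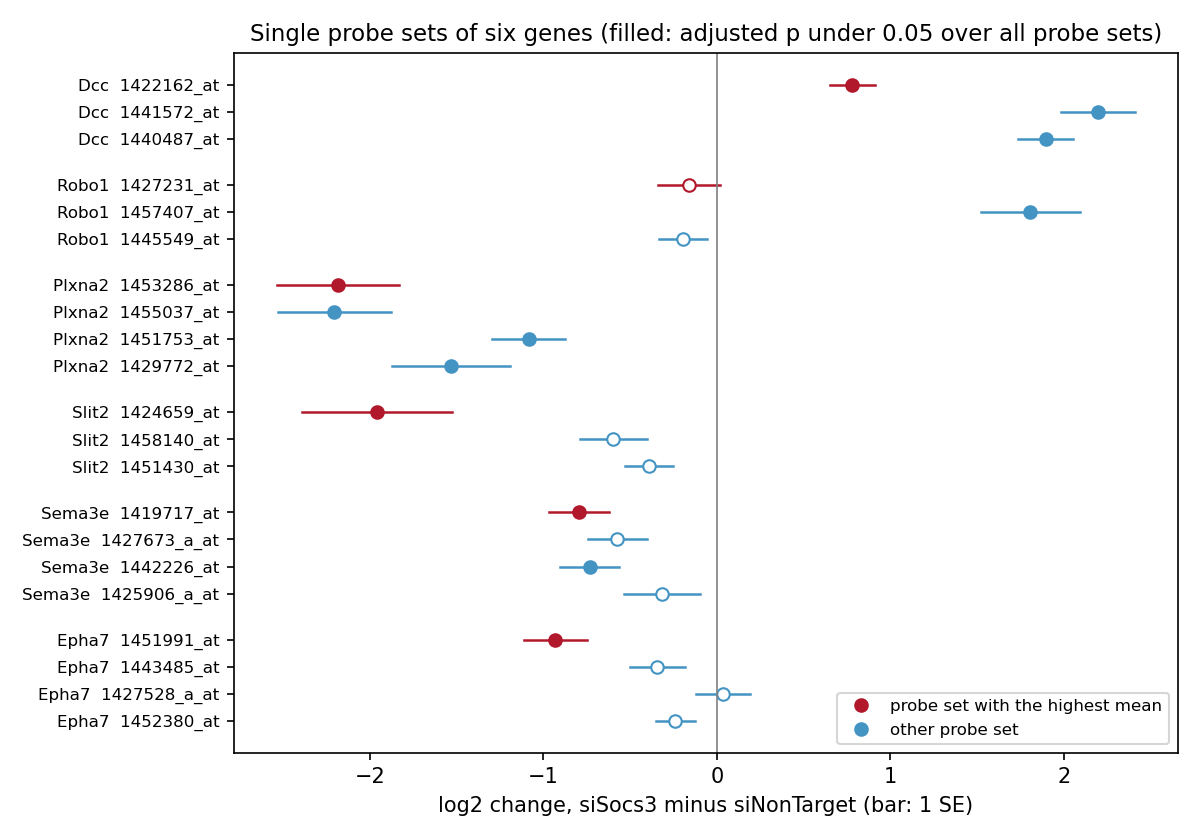
Log2 change, siSocs3 minus siNonTarget, for every probe set of 6 guidance genes, with bars of 1 SE, filled points for adjusted p under 0.05 over all probe sets, red for the probe set with the highest mean and blue for the others. All Dcc and Plxna2 probe sets are filled and on one side of 0; for Robo1 a blue point sits at 1.81 beside a red one at −0.16.

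Many of these calls were lost when a single array was left out, which also leaves 1 array in its group and fewer degrees of freedom. Whether the values of that array or the smaller fit cost a call was not tested. With siSocs3 replicate 1 left out, 0 of the 69 genes passed in siSocs3 against siNonTarget (limma; 63 genes passed over the whole array), and Robo4 was then 1.18, Dcc 0.59, Plxna2 −1.92, Slit2 −1.70, Sema4c −1.20, Epha7 −0.87, Sema3e −0.60 and Slit3 −0.56. Without siNonTarget replicate 1, Robo4 (1.64) kept the call and the other 7 lost it, with Dcc at 0.78 and Plxna2 at −1.97, while Efnb2 gained one. Without siSocs3 replicate 2, Dcc, Plxna2, Robo4 and Sema3e kept the call. Without siNonTarget replicate 2, Dcc, Plxna2, Robo4, Sema3e and Sema4c kept the call, and guidance genes outside the original 8 gained one. None of the 8 estimates changed sign in these fits, whereas between 6 and 11 of the 69 genes did when single siSocs3 or siNonTarget arrays were left out, among them Slit1 (0.15 without siNonTarget replicate 2), Ephb6 (0.02 without siSocs3 replicate 1) and Sema3c, which was −0.50 with all arrays and 0.06 with that control array left out. When the pair of arrays of high actin difference was dropped, Sema3e (−0.64) and Slit3 (−0.59) lost the call and Efnb2 gained one.

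**Figure D4:**
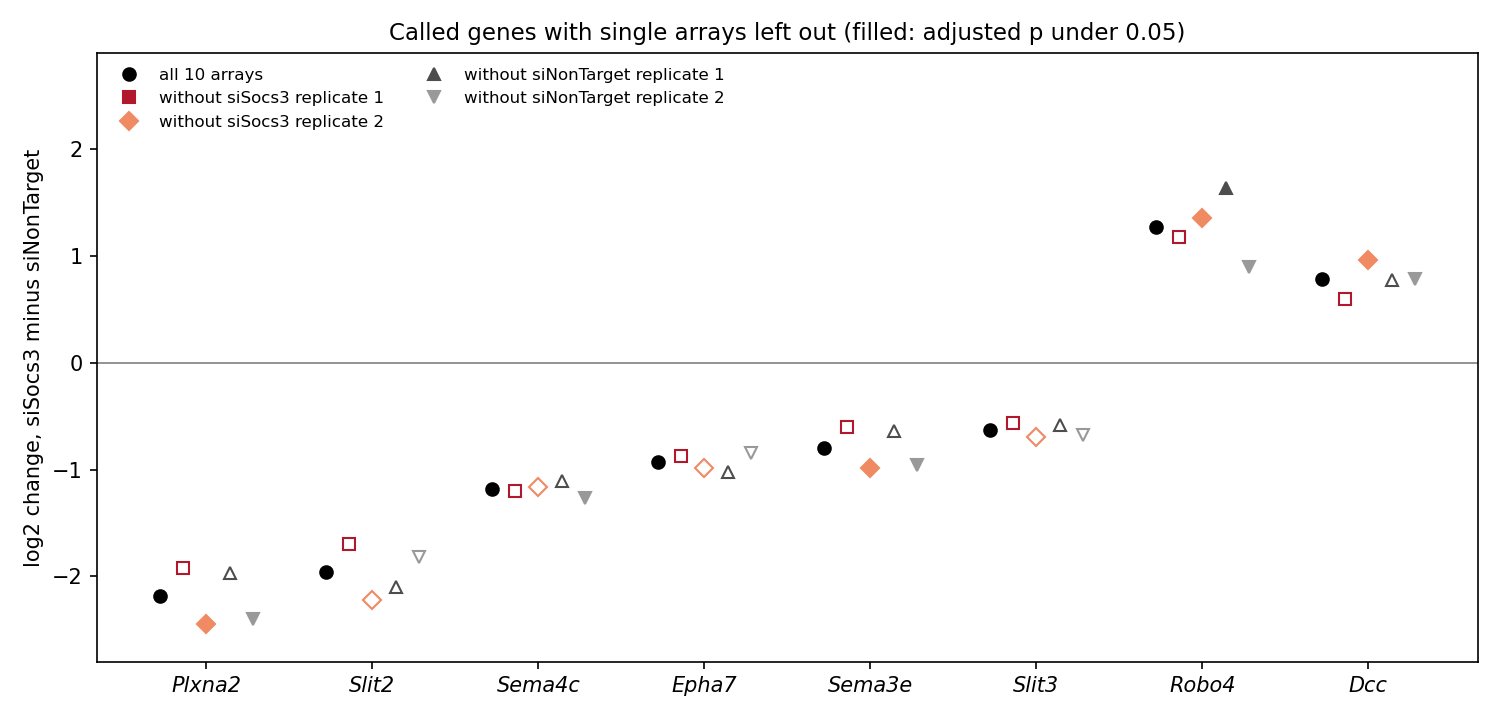
Log2 change, siSocs3 minus siNonTarget, of the 8 called genes with all 10 arrays (black) and with single siSocs3 or siNonTarget arrays left out, filled where adjusted p is under 0.05. No point crosses 0, and every point without siSocs3 replicate 1 is open.

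Without regard to the test, siSocs3 arrays lay above both controls for 13 guidance genes (18.8%, background 30.6%) and below both for 23 (33.3%, background 26.7%). The median change of the 69 genes was −0.05, and that of all genes 0.03. At an unadjusted p under 0.05 there were 17 guidance genes (24.6%), against 26.2% of all genes.

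In the arrays labelled siSox17, 0 of the 69 genes passed, where 1 of 18194 genes did (0.0055%, limma with Benjamini-Hochberg). At an unadjusted p under 0.05 there were 16 guidance genes (23.2%, background 17.3%). The 3 with the smallest p were Efna2, Sema4c and Robo4. Efna2, an A-class ephrin gene, read 7.95 and 8.36 on the siSox17 arrays, 8.32 and 8.79 on the siSocs3 arrays, 9.10 and 8.58 on the siFbxw7 arrays, 8.69 and 8.99 on the siRnf31 arrays, and 9.14 and 9.18 on the siNonTarget arrays. Every array with a targeting siRNA was below both controls, siFbxw7 replicate 1 by little. Its difference in siSox17 was −1.004 ± 0.22 (SE, 2 arrays per group, adjusted p = 0.138), that of Sema4c −0.91 ± 0.21 (adjusted p = 0.138) and that of Robo4 0.84 ± 0.20 (adjusted p = 0.140). Slit2 (−1.44 ± 0.43), Ntn4 (1.03 ± 0.33) and Plxna2 (−1.04 ± 0.35) had differences of over 2-fold that did not pass. Fitted without the other 3 groups, siSox17 against siNonTarget gave 3 called guidance genes, Ntn4, Sema4c and Slit2. The share of all genes called in that fit is not given here. Without both arrays of high actin difference the Robo4 estimate was 1.21.

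For siFbxw7, 0 of the 69 genes passed and 0% of all genes did (limma), with 7 guidance genes (10.1%, background 6.45%) at an unadjusted p under 0.05. The smallest p belonged to Robo4 (0.75 ± 0.20), Slit3 (−0.49 ± 0.14) and Unc5d (0.52 ± 0.20), each at adjusted p = 0.752. Unc5d, a netrin receptor family gene, read 4.11 and 4.75 on the siFbxw7 arrays, 3.75 and 3.99 on the siSocs3 arrays, 4.32 and 4.60 on the siSox17 arrays, 4.03 and 3.98 on the siRnf31 arrays, and 4.03 and 3.79 on the siNonTarget arrays. Those values are near the bottom of the range, and siFbxw7 overlapped siSox17. The siFbxw7 replicates differed by 1.33 on the log2 scale for Slit2 and by over 2-fold for Plxna2, and in both genes replicate 1, an array of high actin difference, was the higher. Whether RNA integrity had a part in that was not tested.

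For siRnf31, likewise, 0 of 69 genes and 0% of all genes passed (limma), and 6 guidance genes (8.7%, background 5.87%) had an unadjusted p under 0.05. The smallest p belonged to Sema3e (−0.68 ± 0.17), Robo2 (−0.51 ± 0.14) and Ntn1 (−0.34 ± 0.12), each at adjusted p = 0.778. Robo2, a Slit receptor gene, read 2.99 and 2.92 on the siRnf31 arrays, 3.08 and 3.07 on the siSocs3 arrays, 2.97 and 3.20 on the siSox17 arrays, 3.33 and 3.16 on those of siFbxw7, and 3.65 and 3.28 on the siNonTarget arrays, all at the floor of the array. Ntn1, the netrin that Dcc binds, read 8.43 and 8.18 on the siRnf31 arrays, 8.29 and 8.46 on the siSocs3 arrays, 8.63 and 8.52 on the siSox17 arrays, 8.39 and 8.36 on those of siFbxw7, and 8.55 and 8.74 on the siNonTarget arrays. The Ntn1 arrays of siRnf31 were below both controls and overlapped those of siSocs3 and siFbxw7.

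**Figure D5:**
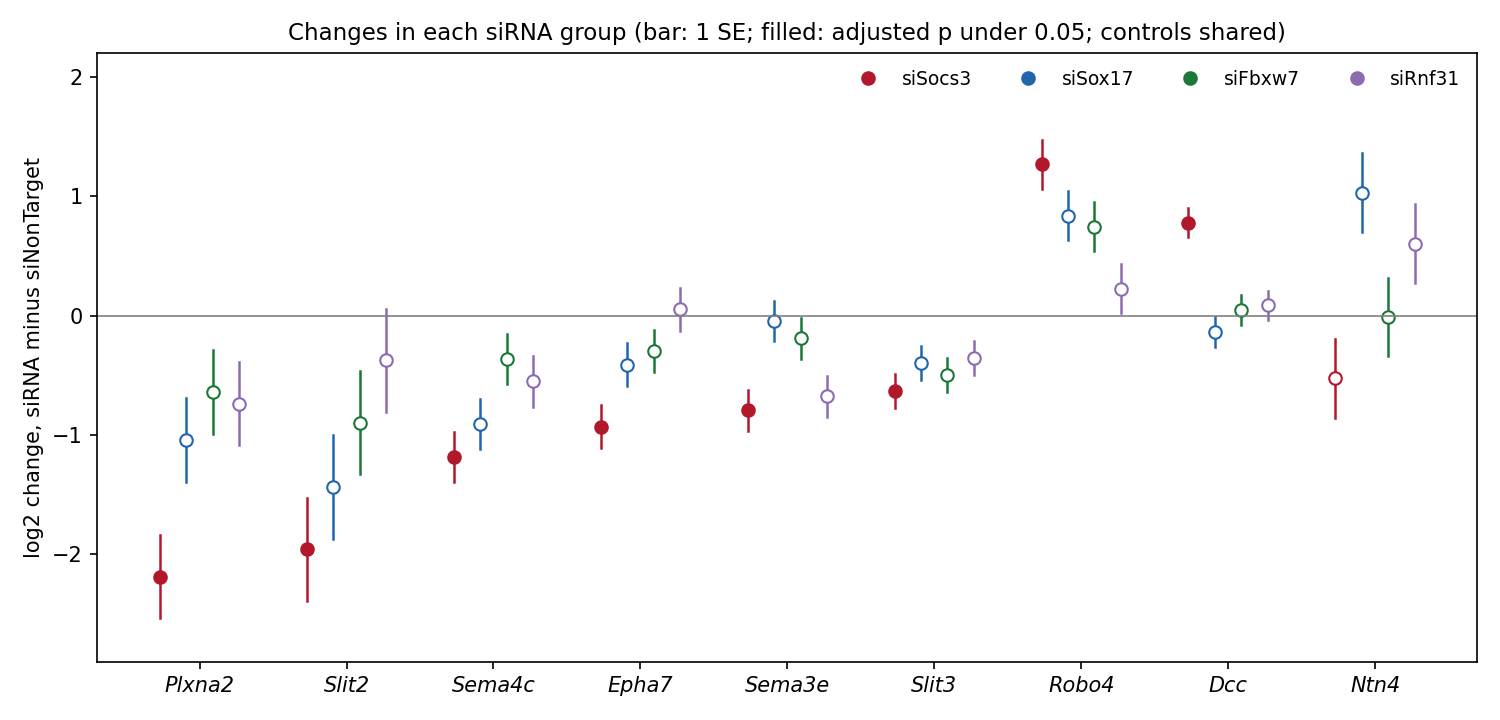
Log2 change against siNonTarget of 9 guidance genes in each siRNA group, with bars of 1 SE and filled points for adjusted p under 0.05; the 4 groups share the same 2 control arrays. The filled points all belong to siSocs3. For Plxna2, Slit2, Slit3, Sema4c and Sema3e the estimates of all 4 groups lie below 0, and for Robo4 above 0.

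The 4 comparisons above share both control arrays, so a control array that reads high or low moves all of them together. Efna2, Sema4c and Slit3 were below both controls on all 8 arrays with a targeting siRNA, as were 4.68% of all genes. Epha10, an Eph receptor gene without kinase activity, was above both on all 8, as were 3.69% of all genes. Its values were 5.95 and 5.73 on the siSocs3 arrays, 5.73 and 5.66 on the siSox17 arrays, 5.96 and 5.71 on the siFbxw7 arrays, 5.92 and 5.66 on the siRnf31 arrays, and 5.54 and 5.64 on the siNonTarget arrays. In each group the lower array exceeded the higher control by little.

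Direct contrasts between siRNA groups separated siSocs3 from the other 3 groups in Dcc. The estimates of these contrasts use no control array, but the spread behind each p-value is pooled over all 10 arrays, controls included. Dcc was higher in siSocs3 by 0.91 ± 0.13 than in siSox17 (limma adjusted p = 0.00710), by 0.73 ± 0.13 than in siFbxw7 (0.0168) and by 0.69 ± 0.13 than in siRnf31 (0.0296). Against siSox17, 2 guidance genes passed (2.9%, background 2.61%), Dcc and Ntn4. Ntn4 encodes a netrin of basement membranes. Ntn4 read 4.32 and 4.77 on the siSocs3 arrays and 6.19 and 6.01 on the siSox17 arrays, with 4.92 and 5.19 on the siFbxw7 arrays, 6.28 and 5.07 on the siRnf31 arrays and 4.98 and 5.16 on the siNonTarget arrays. Its difference between siSocs3 and siSox17 was −1.56 ± 0.33 (adjusted p = 0.0448), with siSocs3 below and siSox17 above both controls. The Ntn4 call was lost in 13 of 18 alternatives, among them each siSocs3 and each siSox17 array left out, with estimates from −1.78 to −0.93.

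Against siFbxw7, 2 guidance genes passed (2.9%, background 3.51%), Dcc and Plxna2 (−1.55 ± 0.35, limma adjusted p = 0.0491). The Plxna2 call was lost in 16 of 19 alternatives, and its estimate was −0.94 without siFbxw7 replicate 1. Against siRnf31, 3 guidance genes passed (4.35%, background 2.13%): Dcc, Epha7 (−0.99 ± 0.18, adjusted p = 0.0304) and Robo4 (1.04 ± 0.20, adjusted p = 0.0389). The Robo4 call was lost in 7 of 18 alternatives, among them each siSocs3, siRnf31 and siSox17 array left out, with estimates from 0.96 to 1.13. That of Epha7 was lost in 5 of 18, among them each siSocs3 and siRnf31 array left out, and those of Dcc in 3 of 18 against siSox17, 4 of 18 against siFbxw7 and 6 of 18 against siRnf31. Leaving out siSocs3 replicate 1 ended all of these direct calls, with Dcc at 0.54 against siFbxw7 and 0.51 against siRnf31, Epha7 at −0.93 and Robo4 at 0.96. Among siSox17, siFbxw7 and siRnf31, 0 guidance genes and 0% of all genes passed in the 3 direct contrasts (limma). At an unadjusted p under 0.05 there were 6 guidance genes in siSox17 against siFbxw7 (8.7%, background 5.59%). There were 8 in siSox17 against siRnf31 (11.6%, background 7.68%) and 8 in siFbxw7 against siRnf31 (11.6%, background 5.19%).

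Genes that work beside these ligands and receptors were taken from a list of 72 co-receptors and cytoplasmic effectors, of which 69 were measured. In siSocs3 against siNonTarget 15 of them fell (21.7%, background 5.66%) and 0 rose (background 3.59%). The list was chosen with earlier results of these data known, so these shares are no independent test. The listed genes were not refitted with single arrays left out. The median change of the listed genes was −0.26, beside 0.03 for all genes. The largest called falls were Fzd3, a Wnt receptor gene needed for axon tracts (−1.67 ± 0.33, limma adjusted p = 0.0190), Dpysl4 (−1.47 ± 0.28, adjusted p = 0.0179) and Crmp1 (−1.44 ± 0.38, adjusted p = 0.0476), the last 2 encoding collapsin response mediators that relay semaphorin signals to microtubules. The semaphorin co-receptor gene Nrp1 (−0.98 ± 0.26, limma adjusted p = 0.0469), the netrin receptor gene Neo1, a relative of Dcc (−0.996 ± 0.18), and the growth cone gene Gap43 (−1.10 ± 0.25) fell too. Nrp1, like Crmp1, was close to the threshold. In siSox17, siFbxw7 and siRnf31 against siNonTarget, 0 of the 69 listed genes passed (limma; backgrounds 0.0055%, 0% and 0%). In direct contrasts siSocs3 gave 1 up and 2 down against siSox17 (4.35% together, background 2.61%), 0 up and 2 down against siFbxw7 (2.9%, background 3.51%), and 0 up and 1 down against siRnf31 (1.45%, background 2.13%), shares near those of all genes.

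Stem cell and neural progenitor markers also differed from the controls in siSocs3. In siSox17, siFbxw7 and siRnf31 against siNonTarget, 0 markers of either list passed (limma, backgrounds 0.0055%, 0% and 0%). Median changes there were 0.93, 0.58 and 0.44 for the stem cell list and −0.30, −0.17 and −0.08 for the progenitor list. In siSocs3, 6 of 9 markers of undifferentiated embryonic stem cells rose and 0 fell (backgrounds 3.59% and 5.66%). Their summed intensity was 46018 and 43247 on the siSocs3 arrays against 26658 and 23920 on the siNonTarget arrays. Of 7 neural progenitor markers, 4 fell (Sox1, Pax6, Zic1 and Ncam1) and 0 rose, with summed intensities of 736 and 901 on the siSocs3 arrays against 2233 and 1675 on the siNonTarget arrays. Neuron markers had 1 fall among 7 (Map2, −1.15), and the others lay between −0.55 (Tubb3) and 0.53 (Stmn2). Their summed intensity was 1851 and 1892 on the siSocs3 arrays against 1825 and 1312 on the siNonTarget arrays. Stmn2 made up most of that sum, at 10.58 and 10.55 in siSocs3 against 10.33 and 9.75 in siNonTarget. The mean log2 of the list was 5.96 and 6.01 in siSocs3 against 6.32 and 6.08 in siNonTarget. Extraembryonic endoderm markers had 0 calls among 6 (1285 and 1388 on the siSocs3 arrays against 1711 and 1474 on the siNonTarget arrays). Fibroblast markers, which feeder cells would bring, had 2 falls among 8, Col1a2 and Twist1. Their sums were 1209 and 1385 on the siSocs3 arrays against 1590 and 2020 on the siNonTarget arrays. The others did not pass: Pdgfrb (0.48), Thy1 (0.44), Col3a1 (0.44), Lum (0.004), Col1a1 (0.0007) and Dcn (−0.72). The median change of the list was 0.002. Control replicates differed widely, with Col3a1 at 5.17 and 8.10 on the siNonTarget arrays. In direct contrasts Zic1, and no other neural progenitor marker, was called lower in siSocs3 than in siSox17, siFbxw7 and siRnf31 (limma, −1.51, −1.72 and −1.997). Of the 9 stem cell markers, 0 passed against siSox17 (background 2.61%). Nanog (1.199) and Tdgf1 (1.60) were higher in siSocs3 than in siFbxw7 (background 3.51%), and Nanog alone (1.12) than in siRnf31 (background 2.13%). Map2 (−0.82) and Lama1, an extraembryonic endoderm marker (−1.89), were lower in siSocs3 than in siFbxw7. Deposited intensities start at 5.05, so no marker could read 0, and a marker near that floor does not show that its cell type was present. The part of these cell type shifts in the changes of Plxna2, Slit2, Sema4c, Epha7, Sema3e, Slit3, Robo4 and Dcc was not tested.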

How the data were processed

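Total RNA (5 ng) was amplified, biotin-labelled and hybridised, per the labels' protocols. Each probe set has 1 deposited intensity on each array; the submitters' processing notes name RMA; the sources used here do not give its version or any later scaling. Values from 5.05 to 31606.3 show a linear scale, so log2 was taken of the deposited intensities. RMA makes array distributions alike and compresses changes near background. Of 45101 probe sets, 34958 had 1 symbol on the platform annotation, 932 with several symbols were not used, and 9211 have no name here; 34754 matched RefSeq GRCm38.p6.

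A model of 5 group means was fitted to 18194 genes with limma 3.58.1 in R 4.3.3 (lmFit, eBayes, 5 residual and 3.98 prior degrees of freedom), two-sided, with Benjamini-Hochberg adjustment over all genes within each contrast. Groups of 2 arrays limit the precision, and an exact permutation test over them cannot reach 0.05. The fit was tested on simulated data. Genes named are those past the threshold in any contrast, the 3 smallest p in each contrast against siNonTarget, the 10 highest means and each family's extremes; others named were chosen after their values were seen. The members, lists (72 guidance co-receptors and effectors; 6 marker lists) and tests were chosen with earlier results of these data known. Replicate numbers were not used as pairs in the main fit. The correlation of same-numbered deviations ran from -0.260 to 0.421 over the 10 pairs of groups, highest for siNonTarget with siFbxw7. Figures used matplotlib 3.10.9.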

Additional observations from a re-analysis of the deposited data

Results flagged for a closer look

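Each siRNA group was compared with the same controls, and 7 of the resulting effects on guidance genes differed between siRNA groups in a direct test (limma, Benjamini-Hochberg, 2 arrays per group). Dcc was higher in siSocs3 than in siSox17 (0.91 ± 0.13, adjusted p = 0.00710), siFbxw7 (0.73 ± 0.13, adjusted p = 0.0168) and siRnf31 (0.69 ± 0.13, adjusted p = 0.0296), on both siSocs3 arrays each time. Ntn4 was lower in siSocs3 than in siSox17 (-1.56 ± 0.33, adjusted p = 0.0448), with 4.32 and 4.77 on the siSocs3 arrays against 6.19 and 6.01 on the siSox17 arrays. Plxna2 was lower in siSocs3 than in siFbxw7 (-1.55 ± 0.35, adjusted p = 0.0491), where the siFbxw7 replicates themselves read 8.46 and 7.24. Epha7 was lower (-0.99 ± 0.18, adjusted p = 0.0304) and Robo4 higher (1.04 ± 0.20, adjusted p = 0.0389) in siSocs3 than in siRnf31. All 7 calls were lost without siSocs3 replicate 1. No group was large enough to ask whether 1 array stood apart from the rest of its group.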

How the results depend on the processing

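The counts of guidance genes called in siFbxw7 or siRnf31 against siNonTarget, and among siSox17, siFbxw7 and siRnf31, stayed at 0 in every alternative run, and none of the 24 estimates of called genes and of the 3 smallest p against siNonTarget changed sign in any of them. Leaving out single arrays gave 0 to 9 called genes in siSocs3 against siNonTarget (8 with all arrays), 0 to 2 against siSox17 (2), 0 to 4 against siFbxw7 (2), 0 to 5 against siRnf31 (3) and 0 to 6 in the F test over 5 groups (1); it gave 0 to 0 in siSox17 against siNonTarget. Counts in this section are of called guidance genes, or probe sets where stated, without the share of all genes called in each setting. They do not show whether guidance genes moved apart from the whole array. The cause was not tested unless the setting itself gives it. With the replicate number as a block, siSocs3 had 1 against siSox17, 1 against siFbxw7, and the F test 0; the block left the other counts within 1.5 times, but Robo4 lost its call against siRnf31 (1.04, limma adjusted p = 0.0570). Crossing the numbers, an alternative chosen after seeing the data for 3 pairs of groups, gave 9 in siSox17 against siNonTarget. A fit of the 2 groups alone gave 3 in siSox17 against siNonTarget and 0 in siSocs3 against siFbxw7. Quantile normalization gave 1 against siSox17, 1 against siFbxw7 and 2 in the F test, and median centring 2 in the F test. Without the dimmest 30% of genes siSocs3 had 1 against siFbxw7. Without the dimmest 50%, which leaves fewer genes to test, siSocs3 had 5 against siNonTarget, 0 against siSox17, 1 against siFbxw7, 0 against siRnf31, and the F test 0. A trended and robust prior gave 1 against siFbxw7 and 2 in the F test, and averaging the probe sets of each gene 1 against siSox17. Testing every probe set alone called 15 probe sets against siNonTarget, 4 against siSox17, 4 against siFbxw7, 5 against siRnf31 and 4 in the F test. A 2-fold minimum left 4, 1, 1 and 1 in these comparisons and 0 in the F test. Without both arrays of high actin difference there was 1 in siSox17 against siNonTarget, 0 in siSocs3 against siFbxw7, 5 against siRnf31 and 2 in the F test. Robo2, Unc5d and the other probe sets near the bottom of the range are limited by background, where changes are compressed.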

Other observations

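Sema3c, which encodes a secreted semaphorin, differed most between replicates among the 69 genes in 3 of 5 groups. It read 6.39 and 7.23 on the siSocs3 arrays, 8.13 and 7.12 on the siSox17 arrays, 6.46 and 6.60 on the siFbxw7 arrays, 7.61 and 7.89 on the siRnf31 arrays, and 6.75 and 7.86 on the siNonTarget arrays. The gap between replicates was 0.83 in siSocs3, 1.01 in siSox17 and 1.11 in siNonTarget. In siFbxw7 the widest gap was that of Slit2 (1.33) and in siRnf31 that of Ntn4 (1.22).

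Over all guidance genes the median gap between replicates was 0.16 in siSocs3, 0.17 in siSox17, 0.19 in siFbxw7, 0.13 in siRnf31 and 0.26 in siNonTarget. Over all genes it was 0.11, 0.12, 0.15, 0.14 and 0.15 in the same groups.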
